A study of Mus musculus with 4 samples.

Results

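AMPA and kainate receptor subunit transcripts were examined in the whole fetal brain of C57BL/6J mice, a common inbred strain, on embryonic day 16. The ethanol group came from pregnant females injected with 2.5 g of ethanol per kg in saline on gestational days 14 and 16, and the control group from females injected with an equal volume of saline on those days. Each group had 2 arrays, each array carried RNA pooled from 3 mice, and 12 mice entered in all. The sex of the fetuses is labelled unknown and the sources used here do not name the litters, so p-values measure only the spread between pools, which may be partly technical. The comparison asks whether this acute prenatal exposure goes with a different level of each subunit transcript. The subunits were taken by symbol, as probe sets annotated with that symbol alone. All 9 genes (Gria1 to Gria4 and Grik1 to Grik5) had a probe set of their own, 1 each, among 19938 genes measured in this way.

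AMPA and kainate receptors are glutamate-gated cation channels built as tetramers. AMPA receptors, made of the products of Gria1 to Gria4, carry most fast excitatory transmission, and in the fetal brain they appear on young neurons and glial precursors before most synapses have formed. The Gria2 product, whose transcript is edited by an RNA deaminase at a codon of the pore, makes AMPA channels nearly impermeable to calcium. Kainate receptors combine the products of Grik1, Grik2 and Grik3, which can form channels alone, with those of Grik4 and Grik5, which bind kainate tightly but need a partner of the first set, and they tune transmitter release and the motility of growing axons.

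Promoter windows of 6 of the 9 genes (Gria2, Gria4, Grik2, Grik3, Grik4 and Grik5) were found in the RefSeq table of assembly GRCm38.p6, each from 250 bases before to 50 bases after the annotated start. A search of both strands of all 32851 such windows for AGCACC and GGACAG separated by any 2 bases, the core of the RE1 element bound by the neuronal gene repressor REST, found it in 17 windows (0.0517%). Of the 6 subunit windows, only that of Gria2 held it, on the strand opposite to the gene, 157 to 170 bases before the start, with no overlap with another motif searched. It is shown because an RE1-like silencer is a known feature of this gene, and its capitals mark the match, at chr3:80802959-80803038 on the minus strand.
Gria2: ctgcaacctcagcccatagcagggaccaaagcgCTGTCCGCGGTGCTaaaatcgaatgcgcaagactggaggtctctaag
The GC box GGGCGG, a binding motif of Sp1-like factors, was in the windows of Grik3, Grik4 and Grik5 and in 35.7% of all windows. The 100 bases before the start of Grik5 are shown because this was the only subunit whose groups did not overlap between treatments. Another GC box of its window, 180 to 185 bases before the start, lies outside them. The stretch is at chr7:25072370-25072469 on the minus strand, with the GC box 58 to 63 bases before the start in capitals.
Grik5: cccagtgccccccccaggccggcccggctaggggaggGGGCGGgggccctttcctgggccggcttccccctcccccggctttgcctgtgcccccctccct
The NRF1 site, searched as GCGCA and GCGC separated by 1 base, was in the Gria2 window (4.6% of all windows), and the TATA box TATAAA was in 0 of the 6 (13.6% of all windows). G and C made up 59.7% (Gria4) to 82.0% (Grik3) of the 6 windows, against a median of 52.7% over all windows. These matches describe the reference sequence, and the arrays did not measure binding.

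The deposited values are log2 brightness, and a difference of 1 on this scale is a doubling. Every subunit lay above the lower quartile of each array (6.45 to 6.55). Brightness depends on the probes as well as on the RNA, so levels of different subunits were not ranked against each other. The number of arrays limits the precision. In whole brain, fewer cells of a type and less RNA per cell cannot be told apart.

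The pools were not alike in other tissues and sex-linked genes. All 15 skeletal muscle markers were brighter in control 1 than in control 2, by a median of 3.07, and their mean level was 7.24 and 8.37 in the ethanol pools and 9.83 and 7.21 in the control pools. The 9 mitosis markers and the 10 vessel and pericyte markers were likewise all higher in control 1 than in control 2, by medians of 0.46 and 0.34. Of 12 general neuron markers, 9 were lower in control 1 than in control 2 (median -0.06). The mean of the 12 was 12.136 and 12.146 in the ethanol pools and 12.115 and 12.178 in the control pools. Xist, the RNA of the inactive X chromosome, stood at 12.0 and 12.8 in the ethanol pools and at 6.10 and 12.8 in control 1 and control 2. The Y-linked Eif2s3y stood at 11.2 and 10.0 in the ethanol pools and at 11.6 and 9.98 in the control pools. Uty and Kdm5d, also Y-linked, had the same order of pools, highest in control 1, then ethanol 1, ethanol 2 and control 2.

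No subunit differed between ethanol and control by the test across all genes, and the 9 log2 differences lay between -0.17 (Grik5) and 0.11 (Gria3). Of the AMPA subunits, Gria2 and Gria4 had nearly the same mean in both groups, and Gria1 and Gria3 had slightly higher means in ethanol. Of the kainate subunits, Grik5 had the largest difference, with a mean 0.886-fold that of controls, Grik1, Grik2 and Grik3 had smaller differences of the same sign, and Grik4 the opposite sign. Limma, with Benjamini-Hochberg adjustment over 19938 genes, called 0 of the 9 at an adjusted p under 0.05 (smallest adjusted p = 0.980). It called 0% of all genes at that threshold and 2.94% at an unadjusted p under 0.05, which 0 of the 9 met. A looser rule, a fold of 1.2 or more and an unadjusted p under 0.05, was met by 0 of the 9 and by 1.02% of all genes. The median of the 9 differences was -0.011, against 0.0088 over all genes, with 3 above 0 and 6 below (45.8% of all genes below).

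**Figure D1:**
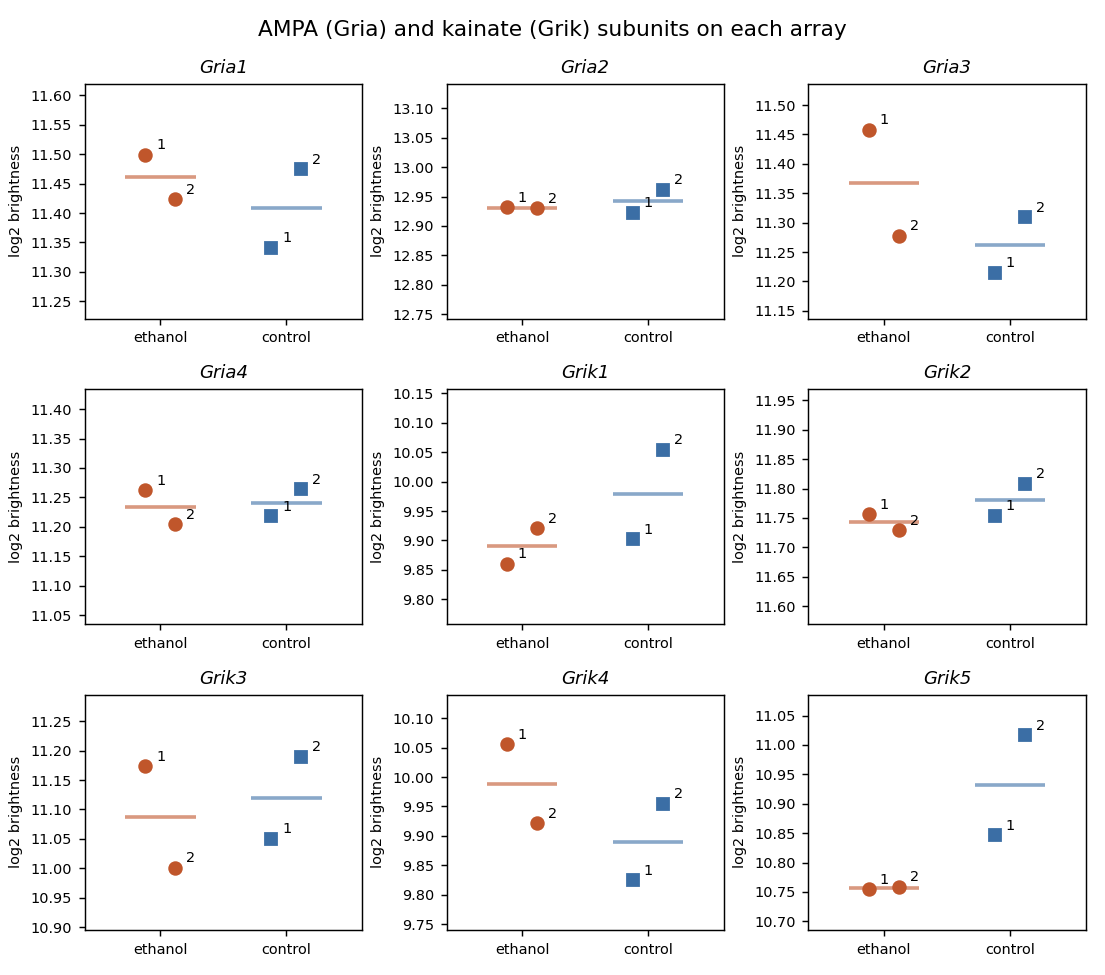
Log2 brightness of each subunit (vertical axis, the same span of 0.4 in every panel) on the 2 ethanol arrays (circles, left) and the 2 control arrays (squares, right), numbered by pool, with horizontal bars for group means. Control 1 lies under control 2 in all 9 panels, and only for Grik5 do the groups not overlap.

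Among the AMPA subunits, Gria1 (chromosome 11, probe set 10376245), a main subunit of calcium-permeable and plasticity-related AMPA receptors, stood at log2 levels of 11.50 and 11.42 in ethanol 1 and ethanol 2 and at 11.34 and 11.47 in control 1 and control 2. The control pools enclosed ethanol 2, and the difference was 0.05 ± 0.08 (log2, SE, 2 arrays per group; limma adjusted p = 0.980). Gria2 (chromosome 3, probe set 10498885), the subunit that limits calcium entry, stood at 12.93 and 12.93 in the ethanol pools and at 12.92 and 12.96 in the control pools. Its 4 values spanned 0.039, the smallest range of the 9, and its difference was -0.011 ± 0.066. The 95% interval of that difference ran from 0.886-fold to 1.11-fold.

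Gria3 (chromosome X, probe set 10599348), whose product often pairs with that of Gria2, stood at 11.46 and 11.28 in the ethanol pools and at 11.21 and 11.31 in the control pools. Ethanol 1 was the highest array and ethanol 2 lay between the control pools, and the difference was 0.11 ± 0.09 (interval from 0.924-fold to 1.25-fold). Gria3 was the only X-linked subunit. Its lowest value was in control 1, the pool with Xist at 6.10, as were those of the autosomal Gria1, Gria2 and Grik4. The part of sex in the Gria3 value was not tested. Gria4 (chromosome 9, probe set 10590663), a subunit with fast kinetics, stood at 11.26 and 11.20 in the ethanol pools and at 11.22 and 11.26 in the control pools. Its groups covered nearly the same span, and the difference was -0.008 ± 0.068, the smallest of the 9. It had the opposite sign (0.0092) after quantile normalization was applied again.

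Among the kainate subunits that form channels alone, Grik1 (chromosome 16, probe set 10440621), encoding GluK1, stood at 9.86 and 9.92 in the ethanol pools and at 9.90 and 10.05 in the control pools. Control 2 was above the other arrays, and the difference was -0.09 ± 0.08. Grik2 (chromosome 10, probe set 10368999), encoding GluK2, which is also subject to RNA editing, stood at 11.76 and 11.73 in the ethanol pools and at 11.75 and 11.81 in the control pools. Ethanol 1 and control 1 differed by 0.0019, and the difference between group means was -0.04 ± 0.07. Grik3 (chromosome 4, probe set 10508052), encoding GluK3, stood at 11.17 and 11.00 in the ethanol pools and at 11.05 and 11.19 in the control pools. Its pools within a group lay further apart than the group means, whose difference was -0.03 ± 0.09.

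Among the subunits that need a partner, Grik4 (chromosome 9, probe set 10592629), encoding GluK4, stood at 10.06 and 9.92 in the ethanol pools and at 9.82 and 9.95 in the control pools. Ethanol 1 was highest and control 1 lowest, with ethanol 2 and control 2 close together, and the difference was 0.10 ± 0.09. Grik5 (chromosome 7, probe set 10560945; its promoter is printed above), encoding GluK5, the more widespread partner, stood at 10.75 and 10.76 in the ethanol pools and at 10.85 and 11.02 in the control pools. Both ethanol pools lay under both control pools. The difference was -0.17 ± 0.08 (interval from 0.769-fold to 1.02-fold; limma unadjusted p = 0.0805, adjusted p = 0.980). With 1 array left out it ran from -0.26 (without control 1) to -0.09 (without control 2).

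Groups that do not overlap were thus found for 1 of the 9 subunits, against 31.4% of all genes (14.0% lower in ethanol). With 2 arrays against 2, an exact two-sided permutation test of a single gene cannot go below p = 0.333. A larger absolute difference than that of Grik5 was found in 8.62% of all genes. The shares for Gria3, Grik4 and Grik1 were 26.3%, 29.0% and 34.5%, and those for the other 5 subunits lay between 55.0% and 92.7%.

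**Figure D2:**
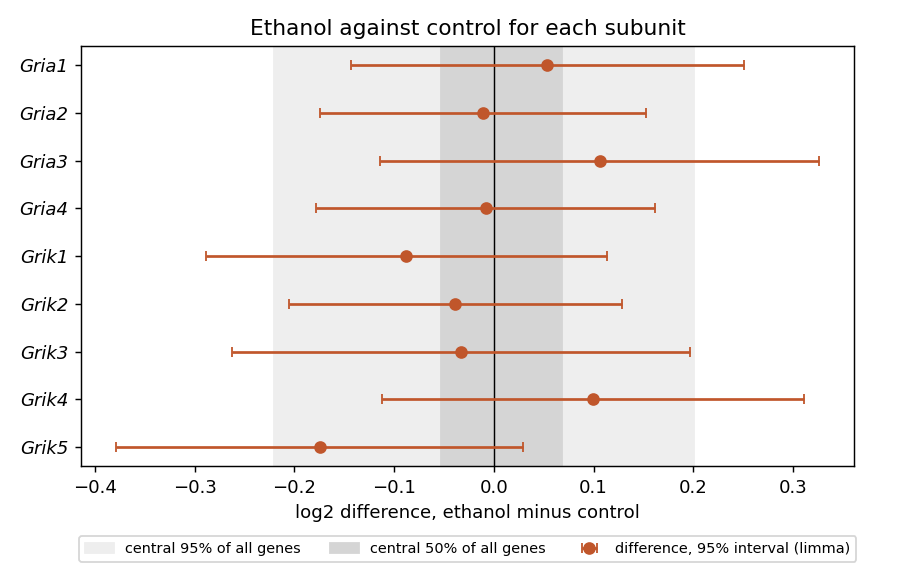
Log2 difference, ethanol minus control (horizontal axis), of each subunit with its 95% interval from limma, over bands that hold the central 50% and the central 95% of the differences of all genes. All 9 intervals include 0, and all 9 points lie within the central 95% band, which runs from -0.22 to 0.20.

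All 9 intervals included 0. Together they ran from 0.769-fold to 1.25-fold, and none reached a 1.5-fold change in either direction. These intervals rest on 2 pools per group and on a variance shared among genes, and they do not show that the levels were equal.

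For 8 of the 9 subunits the pools of one treatment lay further apart than the 2 group means, as they did for 81.0% of all genes. Control 1 was lower than control 2 for all 9 subunits, by 0.039 (Gria2) to 0.17 (Grik5) with a median of 0.13, where 53.5% of all genes were lower in control 1. All 9 were also lower after quantile normalization was applied again (56% of all genes) and after centring on array medians (63.9% of all genes). This direction was shared by related lists described below. Control 1 was above control 2 in 0 of 6 NMDA, 0 of 7 metabotropic, 1 of 14 AMPA auxiliary and 2 of 15 scaffold and trafficking genes. Ethanol 1 was higher than ethanol 2 for 7 of the 9 (58.4% of all genes; 6 after repeated quantile normalization and 5 after median centring), by up to 0.18 for Gria3, and the same gap was -0.060 for Grik1 and -0.0039 for Grik5. The gap between the control pools exceeded the difference between group means for 7 of the 9 subunits (59.9% of all genes), and the exceptions were Gria3 and Grik5. The gap between the ethanol pools exceeded it for 5 of the 9 (64.0% of all genes). The subunit with neither gap larger was Grik5, whose group difference of -0.17455 was barely larger in size than its control gap of -0.1698. Control 2 held the highest value for 6 subunits (19.4% of all genes) and ethanol 1 for the other 3, Gria1, Gria3 and Grik4 (40.2% of all genes). Control 1, in which all 9 were lower than in control 2, was also the pool with the brightest muscle, mitosis and vessel markers, and the part of these tissues in the subunit levels was not tested.

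**Figure D3:**
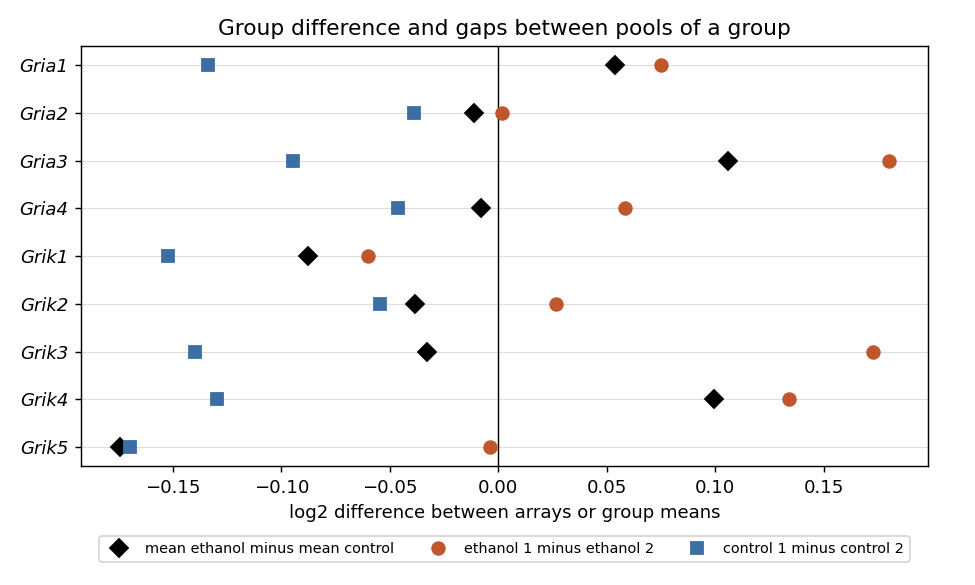
For each subunit, the difference between group means (diamonds), between ethanol 1 and ethanol 2 (circles) and between control 1 and control 2 (squares), on the log2 scale (horizontal axis). The squares lie left of 0 for all 9 subunits, and only for Grik5 is the diamond as far from 0 as both other marks.

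The auxiliary subunits, which travel with the receptors and set their gating and surface level, showed no called gene either. Of 14 AMPA receptor auxiliary genes, 0 passed the adjusted test, 13 had a value above 0 and 1 below (median log2 difference 0.06; 54.2% of all genes above 0). The count and median were 5 of 14 and -0.016 without control 1, 10 of 14 and 0.033 without ethanol 1, 13 of 14 and 0.10 without ethanol 2, and 13 of 14 and 0.16 without control 2. Syndig1, encoding a transmembrane partner of AMPA receptors in synapse formation, stood at 10.29 and 10.17 in the ethanol pools and at 10.03 and 10.11 in the control pools (difference 0.16 ± 0.08). The TARP genes Cacng7 and Cacng3 had differences of 0.17 ± 0.11 and 0.18 ± 0.11. The groups did not overlap in 3 of the 14 genes (31.4% of all genes), with both ethanol pools above both control pools in Syndig1 and Cacng7 and below them in Cacng4, another TARP gene, named after its values were seen. In Cacng3 control 2 lay between the ethanol pools. Of the kainate receptor auxiliary genes, which encode membrane partners that slow the gating of these channels, Neto2 stood at 0.11 ± 0.10 and Neto1 at -0.010 ± 0.096.

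Of 15 genes of receptor scaffolds and trafficking, 0 passed the adjusted test, with 6 above 0 and 9 below (median -0.02). The balance turned with the setting, to 9 above 0 after repeated quantile normalization (median 0.0042) and without control 2 (median 0.032), against 2 above 0 without control 1 (median -0.055). Cpt1c, encoding an endoplasmic reticulum protein that regulates AMPA receptor delivery, stood at 9.65 and 9.67 in the ethanol pools and at 9.79 and 9.85 in the control pools, with a difference of -0.16 ± 0.07 (limma unadjusted p = 0.0546, adjusted p = 0.980). Gripap1, encoding a partner of the AMPA receptor scaffold GRIP, had a difference of -0.12 ± 0.07, and Nptx2, encoding a pentraxin that clusters AMPA receptors, 0.16 ± 0.09. The groups did not overlap in these 3 genes and in 6 of the 15 in all (31.4% of all genes). Of the 3 RNA editing deaminases, 0 passed the adjusted test. Adarb1, whose product edits the pore codon of Gria2, had a difference of -0.14 ± 0.07 (limma unadjusted p = 0.0966, adjusted p = 0.980). Its values were 8.92 and 8.97 in the ethanol pools and 9.05 and 9.10 in the control pools. The groups did not overlap in Adarb1, 1 of the 3 genes (31.4% of all genes). Adarb2, which in mice encodes a deaminase without known activity, stood at -0.016 ± 0.068 and Adar, the other active enzyme, at 0.012 ± 0.090. The array values do not measure editing itself.

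**Figure D4:**
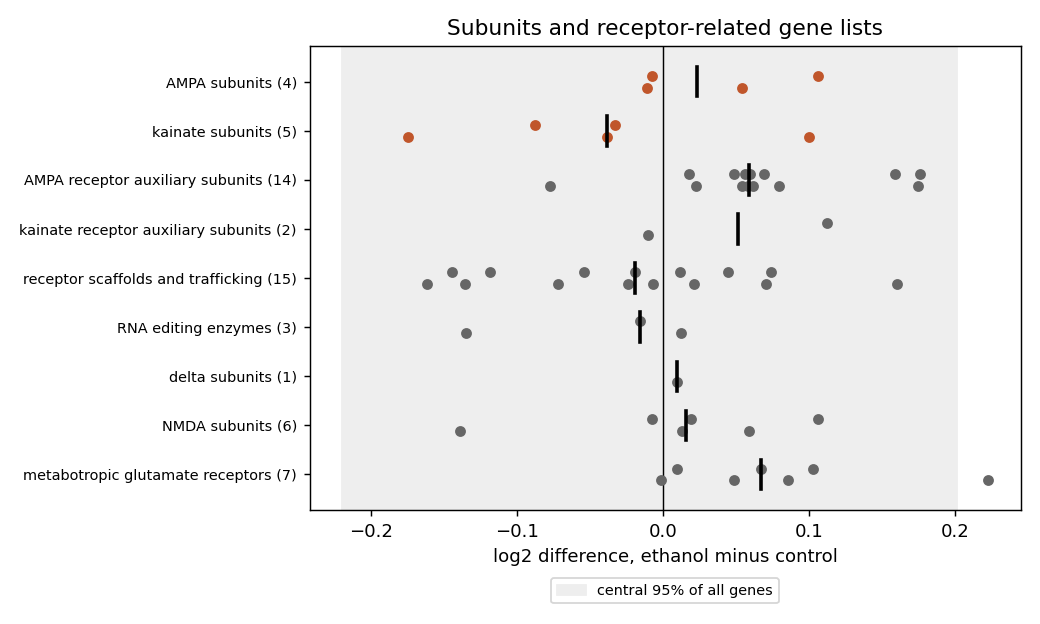
Log2 difference, ethanol minus control (horizontal axis), of every measured gene in 9 lists, with the number of genes in brackets, vertical bars for list medians and a band for the central 95% of all genes. The subunits (upper 2 rows) lie within the band, and Grm2 is the only gene shown outside it.

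The other glutamate receptors were set beside the AMPA and kainate subunits by counts and medians, without a test of the difference between families. Of 6 NMDA receptor subunits measured, 0 passed the adjusted test, and 4 had values above 0 (median 0.016). Grin1, also an NMDA subunit gene, had no probe set of its own and was not among them. The count was 1 of 6 without control 1 (median -0.11), 3 of 6 without ethanol 1 (median -0.0083) or ethanol 2 (median 0.038) and 6 of 6 without control 2 (median 0.11). Among the genes of the glutamate-binding GluN2 subunits, Grin2d stood at -0.14 ± 0.15, Grin2a at 0.11 ± 0.14 and Grin2c at 0.06 ± 0.08. All 6 NMDA subunits were lower in control 1 than in control 2, as were the 9 AMPA and kainate subunits. Of these NMDA genes, Grin3b lay under the lower quartile of each array, and Grin2c did so in ethanol 2, control 1 and control 2. Of 7 metabotropic glutamate receptors, 0 passed, and 6 had values above 0 (median 0.07). These 6 included Grm6, which lay under the lower quartile of each array. The count above 0 was 3 of 7 without control 1 (median -0.0094) and 7 of 7 without control 2 (median 0.18). The median was 0.030 without ethanol 1 and 0.10 without ethanol 2. Grm2, encoding an inhibitory receptor of axon terminals, had 9.49 and 9.45 in the ethanol pools and 9.12 and 9.38 in the control pools. Its difference was 0.22 ± 0.10 (limma unadjusted p = 0.0751, adjusted p = 0.980). Grm3 and Grm4, which also encode inhibitory receptors, stood at 0.10 ± 0.09 and 0.09 ± 0.09. Grid1, of the delta receptors, stood at 0.0091 ± 0.0943.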

How the data were processed

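RNA of pooled fetal brains was hybridised to Affymetrix whole-transcript arrays, 2 ethanol and 2 control. The deposited values are on a log2 scale, 1 per probe set and array; the base was taken from their range. Partek 6.6 is named per the submitters' processing notes; the sources used here name no background correction, normalization or genome build. The table has 35556 probe sets, of which 21789 have 1 symbol, 1621 several and 12146 none in the platform annotation. Entrez identifiers gave current symbols from a GRCm38.p6 gene table (21698 matched), which also gave chromosomes. A gene was represented by its brightest probe set. Limma 3.58.1 (R 4.3.3, lmFit and eBayes, two-sided, 2 residual and 5.65 total degrees of freedom) was fitted to all 19938 genes and tested on simulated data. The simulated data had independent noise for each gene and array, so they lacked the differences between pools that many genes shared here. The text names all 9 subunits and, from each receptor-related list, the 3 genes with the smallest p. Members and lists were chosen with earlier results of these data known. Alternatives were other scalings, probe set rules, variance models, a dim-gene filter, a stricter fold, blocks and leaving out each array. Columns of other samples numbered 0.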

Additional observations from a re-analysis of the deposited data

How the results depend on the processing

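Over the alternatives with all 4 arrays, the smallest adjusted p of any subunit was 0.674 (limma, Grik5). Of the 15 alternatives per subunit, only the other scalings and leaving out an array could turn a sign. The probe set rules, variance models, filter and blocks left each subunit's difference unchanged, since each had 1 probe set and the blocks were balanced. Under the scalings and with each array left out, 5 subunits (Gria3, Grik1, Grik2, Grik4 and Grik5) kept their sign. With 1 array left out the differences ran from -0.013 to 0.12 for Gria1 (below 0 without control 1), -0.030 to 0.0085 for Gria2 (above 0 without control 2), -0.037 to 0.021 for Gria4 and -0.12 to 0.054 for Grik3 (both above 0 without ethanol 2 or control 2). Gria4 came to 0.0092 after repeated quantile normalization and to 0.0024 with each array centred on the mean of the 9 subunits. In that centring, 4 subunits had groups that do not overlap (Gria1, Gria3, Grik4 and Grik5; 28% of all genes). The 2 shares are not alike, because the centring removes the level that the 9 subunits share and not that of other genes. No conclusion is drawn from this count. With 1 array left out, 4 to 6 subunits had groups that do not overlap, against 58.4% to 74.4% of all genes, since a lone pool overlaps less easily. The members' median ran from -0.037 to 0.021 with 1 array left out. Subunits past the adjusted test or the rule of unadjusted p and fold numbered 0 under each alternative. Over all genes, 0 to 4 were called adjusted with 1 array left out (4 without control 2). The 203 genes past the rule of unadjusted p and fold became 142 to 1265 with 1 array left out (1205 without ethanol 2, 1265 without control 2). They became 993 over all probe sets, 134 above the median level, 37 by the ordinary test and 3 at a fold of 1.5. No label says that replicate numbers pair the pools, and same-numbered deviations had a correlation of -0.484 across genes. With the replicate block 196 genes and 0 subunits passed that rule, and with crossed pairing 373 genes and 0 subunits, with 0 genes adjusted in both. Crossed pairing, the centring on the subunits and the list counts without an array were chosen after the data were seen.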

Other observations

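The balance among subunits was described within each array, with values centred on the mean of the 4 arrays and chosen after the data were seen. The level of Gria2 relative to the mean of Gria1, Gria3 and Gria4, a balance that bears on calcium permeability of AMPA receptors, stood at -0.08 and 0.02 in the ethanol pools and at 0.06 and 0.0044 in the control pools (log2). The difference of -0.06 was smaller in size than the gap of 0.10 between the ethanol pools (exact permutation test, two-sided, p = 0.667). Grik4 and Grik5 relative to Grik1, Grik2 and Grik3 stood at 0.02 and -0.0016 in the ethanol pools and at -0.02 and 0.0094 in the control pools (exact permutation p = 0.667). The mean of the 5 kainate subunits relative to that of the 4 AMPA subunits stood at -0.05 and -0.03 in the ethanol pools and at 0.02 and 0.07 in the control pools, without overlap. The difference was -0.08, and the exact permutation p of 0.333 is the smallest that 2 against 2 arrays can give. These 3 balances were the only ones computed.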
